A study of Mus musculus with 5 samples.

Results

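Bipolar cells are the interneurons that carry signals from rods and cones to the inner retina, and the 7 genes described here are widely used to recognise them or some of their types. They are Vsx1, Lhx4, Isl1 and Bhlhe23, which encode transcription factors, and Prkca, Pcp2 and Cabp5, which encode signalling proteins of the cytoplasm. The genes were chosen by name, and each had a single row among the 33635 genes of the deposited count table. The libraries were made from the retinas of male wild-type C57BL6/J mice at P42. A head-mounted diffuser goggle was worn over the right eye from P28, for 2 weeks, which causes form-deprivation myopia (FDM), and the uncovered left eye of the same animals was the control. The table holds 2 FDM and 3 control libraries from 3 mice, and the labels give a refractive error at P42 of 0.2745 and 0.976 diopters in the FDM eyes and from 2.4455 to 3.1505 diopters in the control eyes. The second FDM library is numbered 3 in the table and 2 in its sample title, and the number of the table is used here. By the numbers of the table, FDM 1 and Control 1 are the eyes of the first mouse, FDM 3 and Control 3 are the eyes of the third, and Control 2 has no partner.

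A bipolar cell is of the ON or the OFF type, according to whether it depolarises when light rises or falls, so these cells are where the retinal image is first divided into brightening and darkening. Rods signal mainly to the rod bipolar cell, which is an ON cell, and some also contact OFF cone bipolar cells directly, whereas cones contact many ON and OFF types of cone bipolar cell. Retinal bipolar cells arise late in development under homeodomain factors such as Otx2, and further transcription factors then set and keep the features of each type. A blurring goggle leaves light on the retina but takes away contrast and detail, which is the signal these cells pass on.

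The sequences before 3 of the genes are shown because Cabp5 was the steadiest of the 7 across libraries and Isl1 and Lhx4 varied the most and in the same order. They come from RefSeq promoter windows on GRCm38.p6, in which all 7 genes were found, and end at the base before the first exon of the transcript. The window of Lhx4 lies inside the span of the gene given for GENCODE, which also has a start further upstream. Capitals mark TAATCC, the core recognised by Otx2 and by the photoreceptor factor Crx.
Cabp5, plus strand, chr7:13397905-13398131: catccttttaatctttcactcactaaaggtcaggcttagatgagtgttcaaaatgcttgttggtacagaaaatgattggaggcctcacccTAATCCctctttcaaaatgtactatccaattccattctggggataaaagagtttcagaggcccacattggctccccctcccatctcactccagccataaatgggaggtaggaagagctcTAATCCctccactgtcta
Isl1, minus strand, chr13:116309690-116309938: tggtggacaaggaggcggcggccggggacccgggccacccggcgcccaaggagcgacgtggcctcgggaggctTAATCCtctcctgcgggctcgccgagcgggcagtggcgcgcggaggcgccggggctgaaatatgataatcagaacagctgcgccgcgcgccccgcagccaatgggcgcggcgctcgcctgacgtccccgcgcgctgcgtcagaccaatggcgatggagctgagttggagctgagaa
Lhx4, minus strand, chr1:155742028-155742277: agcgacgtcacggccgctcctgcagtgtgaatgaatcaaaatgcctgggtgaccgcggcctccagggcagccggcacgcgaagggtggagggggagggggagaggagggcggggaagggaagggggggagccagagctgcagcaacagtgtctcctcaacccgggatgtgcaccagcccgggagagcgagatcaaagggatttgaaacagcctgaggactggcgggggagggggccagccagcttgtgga

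Cabp5 held TAATCC at 2 places, beginning 137 and 18 bases before its first annotated exon base, and Isl1 held it at 1 place, 176 bases before. Both strands were searched, TAATCC also as GGATTA. No other of the 7 genes had the motif in its RefSeq windows, which 7.06% of all 32851 promoter windows of 300 bases contained. TAATTA, a homeodomain motif that shares the letters TAAT and reads the same on both strands, was found in 1 gene, in the third of 4 windows of Pcp2, and in 5.29% of all windows. These matches are descriptions of letters, and binding was not measured.

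The libraries held from 40599047 to 56534931 estimated counts. Sag, which encodes the arrestin of rods, stood at 4255 to 5067 CPM, that is counts scaled to the size of the library, in the 5 libraries. Lens markers summed to 2378 CPM in FDM 3 and to between 3.5 and 38.6 CPM in the other libraries. Markers of the retinal pigment epithelium (RPE), which lies behind the retina, summed to 84.0 and 90.8 CPM in the FDM libraries, 94.9 CPM in Control 1, 312.5 CPM in Control 2 and 361.6 CPM in Control 3. Skeletal muscle markers reached 97.3 CPM in Control 3 and lay between 11.6 and 12.9 CPM in the others. For this reason each fold change of the 7 genes was also computed without each library in turn.

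In the comparison of FDM with control eyes, which asks whether 2 weeks of blur alter the retinal transcriptome, none of the 7 bipolar identity genes passed the test. With edgeR's quasi-likelihood test on TMM-normalised counts, 0 of 7 had an unadjusted p under 0.05, the threshold of the study, and DESeq2 and limma also called 0. Over all 17432 genes tested, edgeR called 281, which is 1.61% (0.453% higher and 1.16% lower in FDM eyes), and 0 after Benjamini-Hochberg adjustment, and DESeq2 called 172 at the unadjusted threshold. The log2 fold changes of the 7 genes ran from -0.020 for Cabp5 to 0.10 for Lhx4, with a median of 0.048, beside a median of -0.013 over all genes tested. Of the 7, 5 were above 0 and 2 below, and the smallest unadjusted p was 0.281, for Vsx1 (adjusted p = 1.0 from edgeR). The 95% confidence intervals show what the data still allow. Across the 7 genes the intervals reached at most a decrease of 13.3% (percent change -13.3) for Prkca and an increase of 27.2% for Lhx4, so that a change of 2-fold lay outside the interval of each gene. In whole retina, fewer cells of a type and less RNA per cell cannot be told apart, and a change confined to a small bipolar type is diluted by the others that express the same gene.

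**Figure D1:**
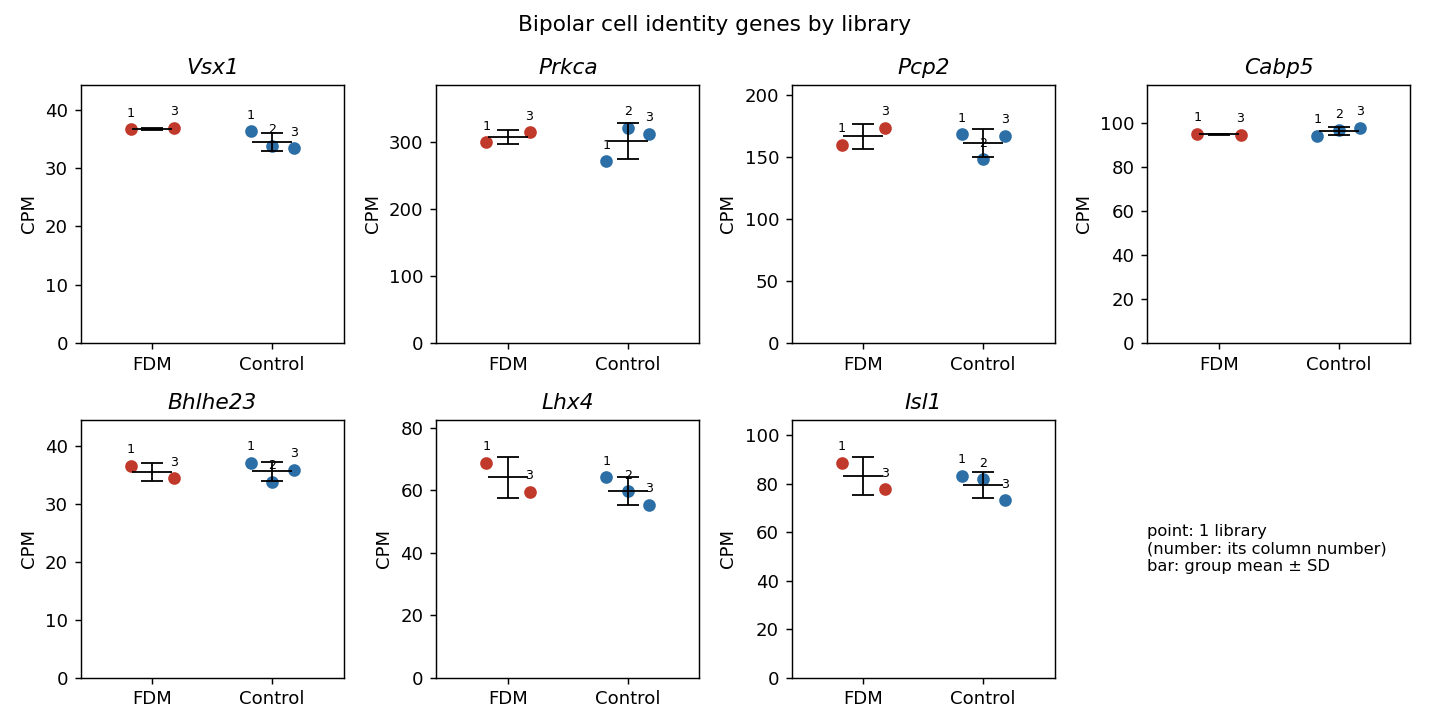
Levels of the 7 bipolar identity genes in CPM (vertical axes, each starting at 0) in the 2 FDM and 3 control libraries. Points are libraries with their column numbers, and bars give the group mean and SD. The groups overlap in 6 of the 7 genes, the exception being Vsx1.

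Vsx1 encodes a paired-type homeodomain factor of cone bipolar cells, mostly of OFF types, whose maturation depends on it. It lies on chromosome 2 of GRCm38, from 150680702 to 150689360 on the minus strand. Its level was 36.7 CPM in FDM 1, 36.9 CPM in FDM 3, 36.3 CPM in Control 1, 33.9 CPM in Control 2 and 33.4 CPM in Control 3. Both FDM libraries thus lay above all 3 controls, which was true of 3.97% of all genes tested, whereas 0 of the 7 genes lay below all 3 controls in both, beside 6.67% of all genes. The gap between Vsx1 in FDM 1 and Control 1 was narrow. The means were 36.8 ± 0.161 CPM in FDM eyes (SD, n = 2) and 34.5 ± 1.58 CPM in control eyes (SD, n = 3). This gave a log2 fold change of 0.09 ± 0.079 (SE, edgeR, unadjusted p = 0.281, adjusted p = 1.0). The interval ran from -0.09 to 0.28. The libraries in which Vsx1 was low, Control 2 and Control 3, were those with the most RPE marker RNA, and the part of that RNA in the difference was not tested.

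Lhx4, a LIM-homeodomain factor found in cone bipolar cells of the postnatal mouse retina, lies on chromosome 1 from 155698031 to 155751684. It stood at 68.9 CPM in FDM 1, 59.4 CPM in FDM 3, 64.2 CPM in Control 1, 59.7 CPM in Control 2 and 55.4 CPM in Control 3. FDM 1 was the highest library, whereas FDM 3 lay within the controls. The log2 fold change of 0.10 ± 0.10 (SE, edgeR, unadjusted p = 0.359, adjusted p = 1.0) was the largest of the 7 genes and was of the size of its error. Without FDM 1 it was -0.0077, and without FDM 3 it was 0.20.

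Isl1, also a LIM-homeodomain factor, is present in rod bipolar and ON cone bipolar cells, and in addition in cholinergic amacrine cells and many ganglion cells, so its level is not that of bipolar cells alone. It lies on chromosome 13 from 116298281 to 116309689. Its levels were 88.7 CPM in FDM 1, 77.7 CPM in FDM 3, 83.3 CPM in Control 1, 81.8 CPM in Control 2 and 73.2 CPM in Control 3. As with Lhx4, FDM 1 was highest and FDM 3 was second lowest. The log2 fold change was 0.07 ± 0.10 (SE, edgeR, unadjusted p = 0.528, adjusted p = 1.0), and without FDM 1 it was -0.032. Of the 5 markers of cholinergic (starburst) amacrine cells, 0 passed the unadjusted threshold in edgeR, with Sox2 lowest at a log2 fold change of -0.13 and Chat, which encodes the enzyme that makes acetylcholine, highest at 0.05. When the mouse was a block in edgeR by column number, Sox2 alone (1 of the 5) passed it, beside 7.23% of all genes in that fit. The fitted log2 difference of Sox2 was then -0.20, with an adjusted p = 0.561 in the blocked edgeR fit. Of the 9 ganglion cell markers 0 passed the unadjusted threshold with or without the block, from -0.13 for Sncg to 0.05 for Nefm without it.

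Bhlhe23 encodes a basic helix-loop-helix factor on which the survival of rod bipolar cells depends, and lies on chromosome 2 from 180774381 to 180776900. The FDM libraries held 36.5 and 34.4 CPM, and Control 1, Control 2 and Control 3 held 37.1, 33.7 and 35.8 CPM. Both FDM values lay inside the range of the controls. The means, 35.5 ± 1.53 CPM in FDM eyes (SD, n = 2) and 35.6 ± 1.68 CPM in control eyes (SD, n = 3), were the closest of the 7 genes, with a log2 fold change of -0.0037 ± 0.082 (SE, edgeR, unadjusted p = 0.965, adjusted p = 1.0). The interval of this fold change ran from -0.20 to 0.19.

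Among the signalling proteins, Prkca encodes protein kinase C alpha, the antigen most often used to stain rod bipolar cells, and lies on chromosome 11 from 107933387 to 108343928. It stood at 300.1 CPM in FDM 1, 315.0 CPM in FDM 3, 271.4 CPM in Control 1, 321.6 CPM in Control 2 and 312.5 CPM in Control 3. The lowest and the highest library were both controls, so the FDM eyes fell inside the spread of the uncovered eyes. The log2 fold change was 0.027 ± 0.099 (SE, edgeR, unadjusted p = 0.794, adjusted p = 1.0). Without Control 1, the low library, it was -0.043.

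Pcp2 encodes a modulator of inhibitory G proteins known from cerebellar Purkinje cells, and in the retina it is expressed by rod bipolar cells and some ON cone bipolar cells. It lies on chromosome 8 from 3623371 to 3625545, where 7 transcripts are annotated. Its levels were 159.9 CPM in FDM 1, 173.7 CPM in FDM 3, 168.6 CPM in Control 1, 148.2 CPM in Control 2 and 167.3 CPM in Control 3. Here FDM 3 was highest and Control 2 lowest, and the remaining 3 libraries lay between them. The log2 fold change of 0.048 ± 0.094 (SE, edgeR, unadjusted p = 0.627, adjusted p = 1.0) turned to -0.036 when the gene and library factors of the authors' normalised counts were used in place of TMM. These factors, divided by the median factor of the library, were 1.042 and 1.036 for Pcp2 in FDM 1 and FDM 3, and 1.010, 0.944 and 0.970 in Control 1, Control 2 and Control 3. For Vsx1, with 1 annotated transcript, the same quotient stayed between 0.994 and 1.002.

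Cabp5, a calmodulin-like calcium-binding protein of rod bipolar cells and some cone bipolar types, lies on chromosome 7 from 13398132 to 13408887. It was measured at 95.02 CPM in FDM 1, 94.7 CPM in FDM 3, 94.2 CPM in Control 1, 96.7 CPM in Control 2 and 97.8 CPM in Control 3. All 5 libraries were thus close together, with a coefficient of variation of 1.55%. The log2 fold change was -0.020 ± 0.077 (SE, edgeR, unadjusted p = 0.797, adjusted p = 1.0), with an interval from -0.20 to 0.16, and it stayed below 0 in each of the 14 alternatives.

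**Figure D2:**
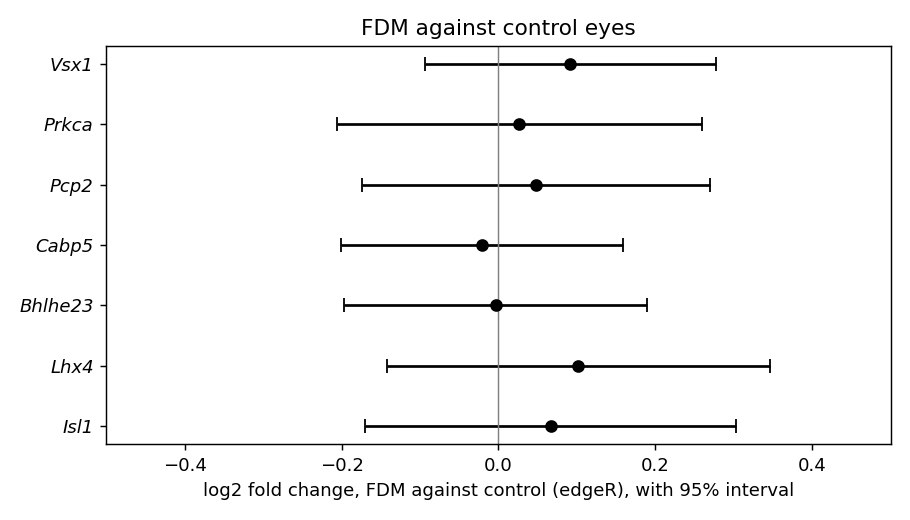
Log2 fold change of each gene in FDM against control eyes from edgeR (points), with its 95% confidence interval (bars). Each interval includes 0, and together they reach from -0.21 to 0.35.

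Levels of different genes were compared per kilobase of annotated exon. On this scale Pcp2 was the most abundant, with 89.5 ± 5.41 CPM per kilobase over the 5 libraries (SD, n = 5). Cabp5 followed with 37.9 ± 0.588 and Prkca with 33.8 ± 2.21 CPM per kilobase, and then came Isl1 at 20.4 ± 1.47, Bhlhe23 at 14.1 ± 0.561, Lhx4 at 10.7 ± 0.898 and Vsx1 at 9.35 ± 0.441 CPM per kilobase. The 3 signalling proteins thus stood above the 4 transcription factors. Neighbours in this order did not overlap in any library except for Lhx4 and Vsx1, whose ranges met. The step between Pcp2 and Cabp5 was 2.36-fold and that between Cabp5 and Prkca 1.12-fold. The order was the same when the longest transcript was used as length, but Isl1 then rose to 32.2 CPM per kilobase and its range, from 29.1 to 35.2, overlapped that of Prkca, from 32.3 to 38.2.

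The eyes of each animal were then compared directly, which gives a value for each mouse and no test. In the first mouse the log2 ratio of the FDM to the control eye ran from -0.08 for Pcp2 to 0.14 for Prkca, and in the third from -0.06 for Bhlhe23 to 0.14 for Vsx1. The median absolute difference between the eyes over the 7 genes was 0.08 and 0.06, respectively, beside 0.09 in both mice over all genes tested. The values over all genes had a small constant added to each CPM and cover genes of any level, so they are not matched to the 7 genes. In both mice Vsx1, Prkca, Lhx4 and Isl1 were higher in the FDM eye, that is 4 of the 7 genes, beside 24.7% of all genes tested. Bhlhe23 was lower in both, 1 of the 7 genes, beside 30.3% of all genes.

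Lhx4 differed between the eyes by 0.10 in the first mouse and by 0.10 in the third, and Isl1 by 0.09 and 0.08. The animals themselves differed by more. Between the first and the third mouse, Lhx4 differed by 0.21 in the FDM eyes and by 0.21 in the control eyes, and Isl1 by 0.19 in both, higher in the first mouse. For Vsx1 the eyes differed by 0.01 in the first mouse and by 0.14 in the third, and for Prkca by 0.14 and 0.01. With the mouse as a block in edgeR, which leaves a single residual degree of freedom, 0 of the 7 genes passed the unadjusted threshold, and the smallest adjusted p among the 7 in the blocked edgeR fit was 0.739, for Lhx4. In that fit 7.23% of all genes passed the unadjusted threshold. If FDM 3 is instead paired with Control 2, by the number in its sample title, the difference between the eyes is -0.0060 for Lhx4, -0.07 for Isl1, -0.030 for Prkca, 0.026 for Bhlhe23, 0.23 for Pcp2 and 0.12 for Vsx1. By that numbering 1 of the 7 genes, Vsx1, was higher in the FDM eye of both pairs, beside 13.9% of all genes tested, and 0 of 7 were lower in both, beside 19.9%. The direction for Lhx4, Isl1, Prkca and Bhlhe23 in the second pair thus depends on which number is right.

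**Figure D3:**
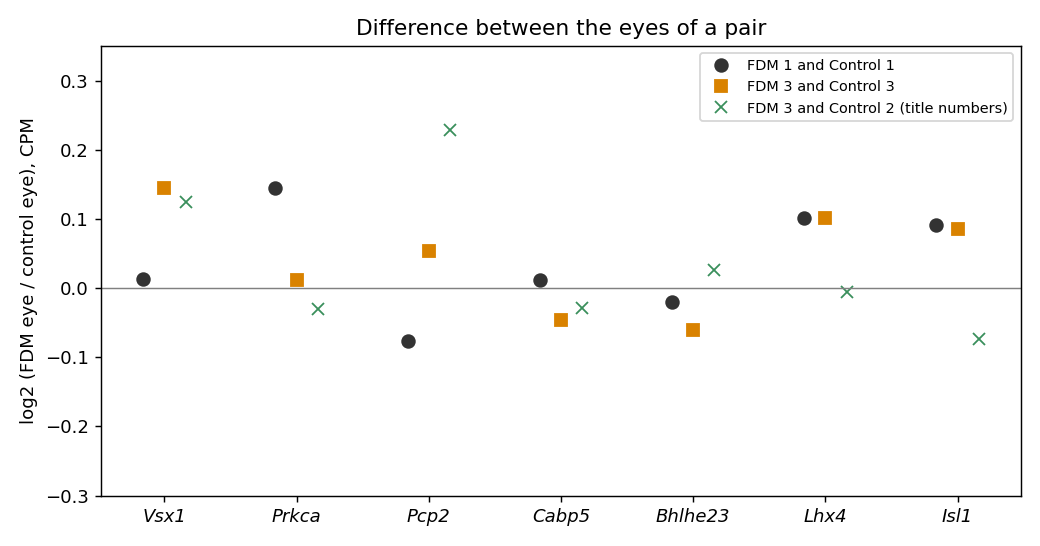
Log2 ratio of the FDM eye to the control eye (vertical axis) for each gene (horizontal axis), for the first mouse (circles), the third mouse by column number (squares), and FDM 3 with Control 2 by title number (crosses). Circles and squares of Lhx4 and Isl1 lie close together near 0.1, whereas the crosses of both genes lie below 0.

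Across the 5 libraries the coefficient of variation ranged from 1.55% for Cabp5 to 8.37% for Lhx4, with a median of 6.05% over the 7 genes. The median was 9.15% over all genes tested and 6.62% over the 5849 genes whose mean CPM lay between those of the lowest and the highest of the 7. The genes did not vary as a block. Each of the 5 libraries was the highest for at least 1 of the 7 genes, and the median deviation of the 7 from their own means stayed between -0.040 (Control 2) and 0.044 (Control 1) in log2 units. Lhx4 and Isl1 were the pair most alike, with a root mean square difference of 0.031 between their deviations on the log2 scale, and the next pair was Cabp5 and Bhlhe23 at 0.061. Lhx4 and Isl1 had the same order of libraries, FDM 1, Control 1, Control 2, FDM 3 and Control 3 from high to low, which 0.774% of all genes tested shared. In the authors' normalised counts Lhx4 kept this order, but Isl1 was higher in Control 2, at 3948, than in Control 1, at 3684. Prkca and Bhlhe23, both genes of rod bipolar cells, had opposite orders: Prkca was highest in Control 2 and lowest in Control 1, and Bhlhe23 the reverse. Their orders were shared by 2.90% and 3.51% of all genes, which ranked 5 and 3 among the 120 possible orders.

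**Figure D4:**
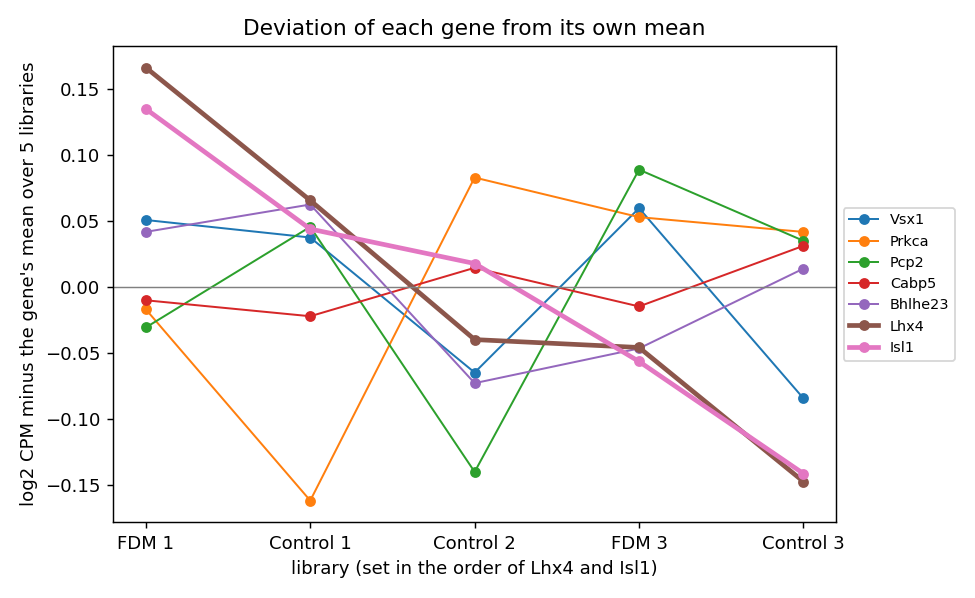
Deviation of log2 CPM from the gene's mean over 5 libraries (vertical axis) for each library, set in the order of Lhx4 and Isl1 (thick lines). Both fall from about 0.17 and 0.14 in FDM 1 to -0.15 and -0.14 in Control 3, while Prkca, Pcp2 and the others follow courses of their own.

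By the same measure, the root mean square difference of deviations over the 5 libraries, the genes most like Lhx4 were Zfp764l1, Pde8a and Xkr7, each at 0.024. Those most like Isl1 were Tet3 at 0.015, Kif13a at 0.021 and Fbxl20 at 0.022. With 5 libraries and 17320 genes compared, close matches of this kind exist for many genes, and neither gene was among the nearest 3 of the other.

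A wider set of bipolar genes was then examined, chosen like the 7 with earlier results of these data known. It held 43 further genes in 3 lists, all of which could be tested. None of them (0 of 43) passed the unadjusted threshold in edgeR, beside the 1.61% of all genes, and 18 were above 0 and 25 below, with a median log2 fold change of -0.019. Among 10 other transcription factors of bipolar cells, the log2 fold changes ran from -0.15 for Neurod4, a factor of bipolar cell formation, to 0.17 for Irx5, a factor of cone bipolar types, and the median was -0.015. Among 12 genes of the ON bipolar cascade, by which the glutamate receptor Grm6 closes the channel Trpm1, they ran from -0.32 for Rgs7bp, a partner of the G protein regulators Rgs7 and Rgs11, to 0.11 for Grm6 itself, and the median was 0.013. Rgs7bp had 26.8 and 28.6 CPM in the FDM libraries and 26.3, 46.5 and 30.6 CPM in Control 1, Control 2 and Control 3, so its difference came mainly from Control 2 (unadjusted p = 0.198, adjusted p = 1.0 from edgeR). Among 21 bipolar subtype markers, they ran from -0.21 for Chrm2, a muscarinic acetylcholine receptor, to 0.13 for Igfn1, with a median of -0.043.

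Of the markers of rods, cones, amacrine cells, horizontal cells and Müller glia, 0 passed the unadjusted threshold in edgeR in any of these lists, and the list medians lay between -0.033 in rods and 0.003 in cones. The medians were -0.053 in ganglion cells, -0.18 in microglia and 0.07 in endothelium, also with 0 genes past the threshold, and all 8 microglial markers were below 0. With the mouse as a block by the column numbers, the unadjusted threshold was passed by 2 of 8 markers of rods, 2 of 8 of cones, 1 of 6 of horizontal cells, 2 of 8 of Müller glia and 1 of 8 of microglia, and by 0 of those of amacrine cells, ganglion cells and endothelium, beside the 7.23% of all genes in that fit. After adjustment 0 of these lists' genes passed in edgeR with the block. The lowest member in rods was Sag (-0.14), and the lowest and highest members were Opn1sw (-0.15) and Pde6c (0.16) in cones, Pax6 (-0.19) and Tfap2b (0.09) in amacrine cells, Onecut2 (-0.12) and Tfap2b (0.09) in horizontal cells, and Apoe (-0.25) and Sox9 (0.07) in Müller glia, as log2 fold changes. Without the block, differences past the threshold were found among the markers of tissues next to the retina. Of 17 lens markers tested, 13 were called higher in FDM eyes, beside 0.453% of all genes, and FDM 3 alone held a high sum. Of 13 RPE markers, 7 were called lower, beside 1.16% of all genes, with Control 1 at the level of the FDM libraries. The sums of the 7 bipolar identity genes were 785.7 and 791.8 CPM in FDM eyes and 755.1, 775.5 and 775.5 CPM in control eyes.

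**Figure D5:**
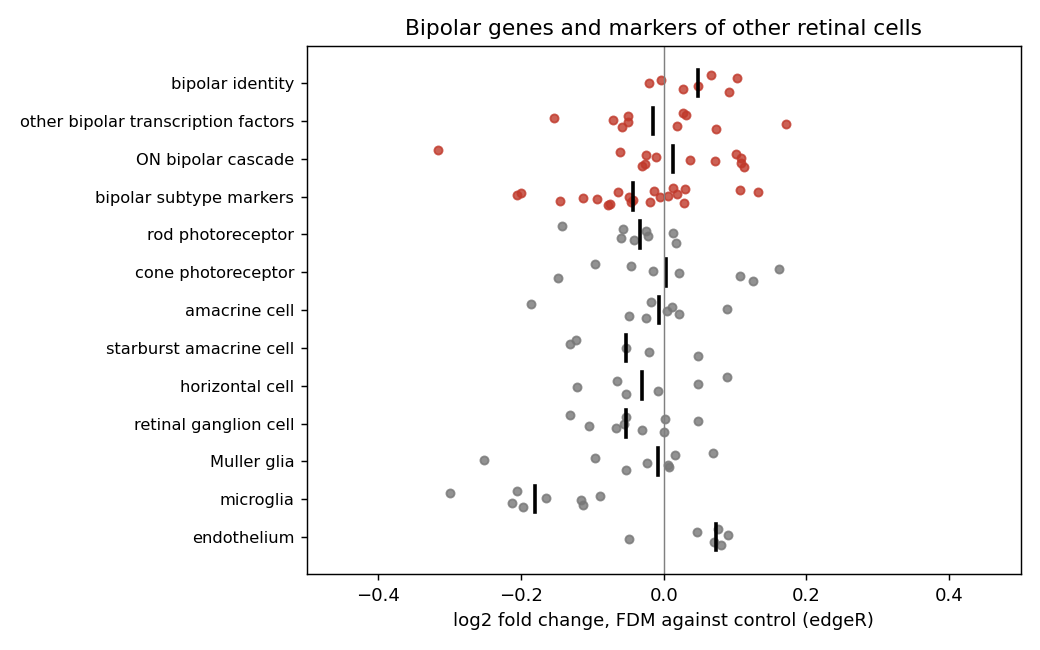
Log2 fold changes in FDM against control eyes (horizontal axis) for the 7 bipolar identity genes and 3 further lists of bipolar genes (red) and for markers of other retinal cells (grey), each point being a gene and each black bar the median of its list. The bipolar genes lie between -0.32 and 0.17, and 0 of those drawn passed the unadjusted threshold without the block. Lens, RPE, muscle and blood lists are not drawn.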

How the data were processed

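Retinal RNA of 5 libraries was analysed, 2 from FDM and 3 from control eyes, grouped by the sample titles or, for FDM 3, by the column name. The authors selected poly-A RNA, trimmed reads with Trimmomatic 0.39, quantified transcripts with Salmon 1.10.1 on GRCm38, and deposited estimated counts per gene as whole numbers (33636 rows, of which 1 repeats an identifier). They removed 1 FDM library for read duplication. They also deposited a signal of counts normalised in DESeq2, whose factors differ between the genes of a library.

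A gene was tested if at least 2 libraries exceeded 10 counts, which left 17432. The quasi-likelihood test of edgeR 4.0.16 (R 4.3.3) was used with TMM normalisation and no covariate. CPM were taken from the effective library sizes (total times TMM factor). The SE was derived from the F statistic and the fitted log2 fold change. The 95% intervals used edgeR's total degrees of freedom, 7.26 for each of the 7 genes. This total adds information shared across genes to the residual degrees of freedom, so the intervals are narrower than the residual ones alone would give. The call is the study's unadjusted p under 0.05, and adjusted p are Benjamini-Hochberg values over all genes tested. A level of 3 counts corresponds to 0.0526 to 0.0751 CPM, for counting error only, far below each of the 7 genes, which had from 1451 to 18333 counts. As alternatives served DESeq2 1.42.0, limma 3.58.1 (normalised counts, pseudocount 1, log2), other factors and filters, blocks and each library left out. The fits were also run on simulated counts in which 200 well-counted genes were changed by a known fold. At 1.5-fold, edgeR called 87.0% of them in the right direction. It also called 4.67% of the unchanged genes, whereas it called 1.61% of all genes in the real data. The simulated libraries were drawn independently, without pairs of eyes, so they cannot show how the fits handle the pairing.

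P-values measure the spread between these 5 libraries, which came from 3 mice. Without the block, the eyes of a mouse were treated as independent. The p-values, SE and intervals of that fit thus leave the pairing out. The mouse numbers pair the eyes of an animal, by the study's design of goggled and uncovered eyes. Across genes, deviations from the group means correlated at 0.247 for FDM 1 with Control 1, 0.0998 for FDM 3 with Control 3 and 0.163 for FDM 3 with Control 2. These values are not independent, because the deviations of both FDM libraries are equal and opposite and those of the controls cancel out. They are therefore not separate checks of the pairing. No libraries held the same counts, the lowest chi-square per degree of freedom being 12.0.

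The 7 genes, the lists and the tests were chosen with earlier results of these data known. Named from the further lists are genes past the threshold and the lowest and highest log2 fold change of each list. For lens, RPE, muscle and blood only sums or counts are given. Without the block 0 of 6 muscle and 0 of 5 blood markers tested were called, beside 1.61% of all genes. With the block by column number 5 and 1 of these were called, beside 7.23% of all genes. Control 3 alone held a high sum of muscle markers. The genes named for the block, Nyx, Lrit3, Col11a1 and Cck, were picked after their values were seen. Coordinates and lengths are from GENCODE M21 on GRCm38, and promoters from RefSeq on GRCm38.p6. Some values of the marker lists are not reported here.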

Additional observations from a re-analysis of the deposited data

How the results depend on the processing

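Under all 14 alternatives 0 of the 7 bipolar identity genes passed the unadjusted threshold, the smallest unadjusted p being 0.143 (adjusted p = 0.829 from edgeR), for Vsx1 without Control 1. Vsx1 stayed above 0 and Cabp5 below 0 in all of them. Pcp2 turned to -0.036 with the factors of the authors' normalised counts, in edgeR and in limma, and to -0.011 with the replicate block by column number. Bhlhe23 turned to 0.0031 with DESeq2 size factors in edgeR, 0.0074 with library totals only, 0.0034 in DESeq2 and 0.0029 with the replicate block by title number. With each library left out in turn, the log2 fold change ranged from 0.07 to 0.13 for Vsx1, from -0.043 to 0.085 for Prkca, from -0.013 to 0.11 for Pcp2, from -0.034 to -0.0025 for Cabp5, from -0.049 to 0.040 for Bhlhe23, from -0.0077 to 0.20 for Lhx4 and from -0.032 to 0.16 for Isl1. Where a single FDM library remained, it was assumed to vary like the controls.

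Over all genes, the 281 calls (79 higher and 202 lower) became 172 in DESeq2, 500 in limma (213 higher and 287 lower), 498 with no filter on low counts, 1261 with the replicate block by column number (622 higher and 639 lower) and 439 with the block by title number. After adjustment, DESeq2 called 3 genes, the block by column number 54 and the block by title number 128. Without each library the count ran from 146 to 944, at 165 without FDM 1, 944 without Control 1, 550 without Control 2 (355 higher and 195 lower, the opposite balance) and 146 without Control 3. The blocks changed no call among the 7 genes. The SE of each of the 7 was smaller with the block by column number and larger with the block by title number. For Lhx4 it was 0.064 and 0.15, respectively, beside 0.10 without a block. Per kilobase of the longest transcript, Pcp2 stood at 101.8, Cabp5 at 53.8, Prkca at 36.2 and Isl1 at 32.2 CPM. With FDM 3 paired to Control 2, the difference between the eyes became 0.23 for Pcp2, 0.026 for Bhlhe23 and -0.074 for Isl1. The causes of these shifts were not tested. Each of the 7 genes had at least 1451 counts in each library, and the precision rests on 5 libraries from 3 mice.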

Other observations

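With the mouse as a block by the column numbers, 4 of the 50 bipolar genes in the 4 lists had an unadjusted p under 0.05. This share was near the 7.23% of all genes tested. The 4 genes were Nyx, Lrit3, Col11a1 and Cck, picked after their values were seen. Nyx, which encodes the nyctalopin that holds Trpm1 at the dendrite tip, stood at a log2 fold change of 0.18. Lrit3, needed for the assembly of the same complex, was at 0.18. Col11a1, a collagen chain, was at 0.20, and Cck, the neuropeptide cholecystokinin, at -0.26. Their adjusted p ran from 0.622 to 0.683 in edgeR with the block. Without the block the same genes stood at -0.027, 0.07, -0.0046 and -0.20.

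Nyx was at 14.8 CPM in FDM 1 and 12.5 CPM in Control 1, and at 14.7 CPM in FDM 3 and 13.6 CPM in Control 3, while Control 2, which has no partner by the column numbers, stood at 19.0 CPM. Cck was at 7.40 CPM in FDM 1 and 9.19 CPM in Control 1, and at 8.19 CPM in FDM 3 and 9.52 CPM in Control 3, with 8.19 CPM in Control 2. Which of these values belong to the same animal rests on the number of the second FDM library, on which the count table and the sample titles differ.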
